A study of Orbilia oligospora with 12 samples.

Results

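The 74 genes described here carry the enzymes that build and attach sugar chains and glycolipid anchors in the nematode-trapping fungus Arthrobotrys oligospora: N-glycans, mannan outer chains, O-linked mannose and glycosylphosphatidylinositol (GPI) anchors. Membership rests on the annotation and on no measured value: the genes are every one of the 11479 genes of the deposited annotated table whose KEGG pathway column names N-glycan biosynthesis (32 genes), the various types of N-glycan (32), mannose-type O-glycans (3), other O-glycans (8) or GPI anchor biosynthesis (23). A total of 24 genes stood in more than 1 of these 5 pathways. RNA from hyphae was sequenced in 4 groups of 3 libraries: the strain labelled ΔAorlmA and the wild type (WT) after 48 h of nematode extract, which induces traps, and the same strains at 0 h. All 4 groups carry the same treatment label and grew at 28 °C on potato dextrose agar, for 5 days. By its name AorlmA is the fungus' counterpart of Rlm1, a MADS-box factor that in Saccharomyces cerevisiae is a target of the cell wall integrity kinase pathway. The growth protocol names another mutant, ΔAosnf1, while the genotype labels and the title name ΔAorlmA. Whether the strain is 1 isolate or several is not given in the sources used here.

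In the endoplasmic reticulum of fungi and animals, an oligosaccharide of N-acetylglucosamine, mannose and glucose is built on the lipid dolichol and moved as a block onto asparagines of new proteins by the oligosaccharyltransferase. Glucosidases and mannosidases then trim it, and in fungi Golgi mannosyltransferases extend it into mannan. Dolichol phosphate mannose, made by DPM1, is the mannose donor for the late steps of that oligosaccharide, for O-mannosylation and for the GPI anchor. GPI anchors and mannosylated proteins hold much of the outer fungal cell wall.

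The libraries held 48.5 to 61.1 M clean reads, and an estimated 12.6 to 15.7 M fragments were assigned to genes. The gene whose number matches the A125 of the mutant's sample titles, AOL_s00078g125, was not lost: it had 108.6, 96.9 and 87.3 TPM (transcript share corrected for gene length and library size) in the ΔAorlmA libraries at 48 h, against 32.3, 45.1 and 27.9 TPM in WT at 48 h. Its levels at 0 h were 72.2, 116 and 164 TPM in the ΔAorlmA libraries, against 38.5, 40.0 and 30.2 TPM in WT. The transcript level therefore does not check the label, and ΔAorlmA below stands for the libraries labelled so. The first ΔAorlmA library at 0 h correlated better with a ΔAorlmA library at 48 h (0.924) than, on average, with its own group (0.903), and the first ΔAorlmA library at 48 h better with a WT library at 48 h (0.944) than with its own group (0.932). The replicates are called biological with no further detail, so the p-values rest on library-to-library spread alone, and part of that may be technical.

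The glycosylation genes were well expressed. Of the 74 genes, 70 reached 1 TPM in at least 3 libraries and were tested, and their median level over all libraries was 43.9 TPM, against 30.6 TPM over all 9355 genes tested. The highest mean levels belonged to DPM1 (187 TPM), a KTR-type Golgi mannosyltransferase (AOL_s00097g175, 176 TPM) and a gene annotated as an alpha-1,6-fucosyltransferase of the FUT8 type (AOL_s00083g476, 164 TPM). The 4 genes left out never passed 1.9 TPM in any library: a pair annotated as OCH1-type mannosyltransferases (AOL_s00215g81 and AOL_s00007g173), a KTR-type gene (AOL_s00006g299) and an MGAT3-type N-acetylglucosaminyltransferase (AOL_s00006g557). The spread between libraries was smallest in WT at 48 h, with a median coefficient of variation of 10.8% over the members and 19.0% over all genes. In ΔAorlmA at 0 h it was widest, at 37.8% and 37.9%.

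After 48 h of nematode extract, the glycosylation genes were lower in ΔAorlmA as a group. Summed over the 74 genes, the libraries held 3399, 3083 and 3279 TPM in ΔAorlmA at 48 h, against 5282, 5040 and 5131 TPM in WT at 48 h, so the groups did not overlap. Of the 70 genes tested, 31 were lower and 0 higher at an adjusted p under 0.05 (limma on log2(TPM + 1), Benjamini-Hochberg adjustment over all genes). At an unadjusted p under 0.05, 39 were lower and 0 higher. Of all genes tested, 14.7% were called lower and 9.2% higher in that comparison. The median change of the members was −0.79 on the log2 scale, against −0.11 over all genes, and 53 of the 70 lay below the median of all genes. In 47 of the 70 members tested every ΔAorlmA library at 48 h lay below every WT library at 48 h. The same held for 2759 of all 9355 genes tested (29.5%). Values are shares of the sampled RNA, so fewer cells of a kind and less RNA per cell cannot be told apart here.

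At 0 h the members were also lower in ΔAorlmA, but in a comparison where a large part of the genome was. The summed level was 3336, 2658 and 2208 TPM in ΔAorlmA at 0 h, against 3769, 3766 and 4405 TPM in WT at 0 h. Limma called 43 members lower and 5 higher, where 33.8% of all genes were called lower and 8.87% higher. The median change was −0.98 on the log2 scale for the members and −0.56 for all genes. The groups did not overlap, with ΔAorlmA below, in 42 of the 70 members tested, and in 4000 of all 9355 genes tested (42.8%). Of the members, 27 were called lower at both times, 16 at 0 h alone, 4 at 48 h alone and 0 in opposite directions. A call at 1 time alone is not a tested difference between the times. The share of all genes called lower at both times was not counted, so these joint counts cannot be taken as particular to the members.

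**Figure D1:**
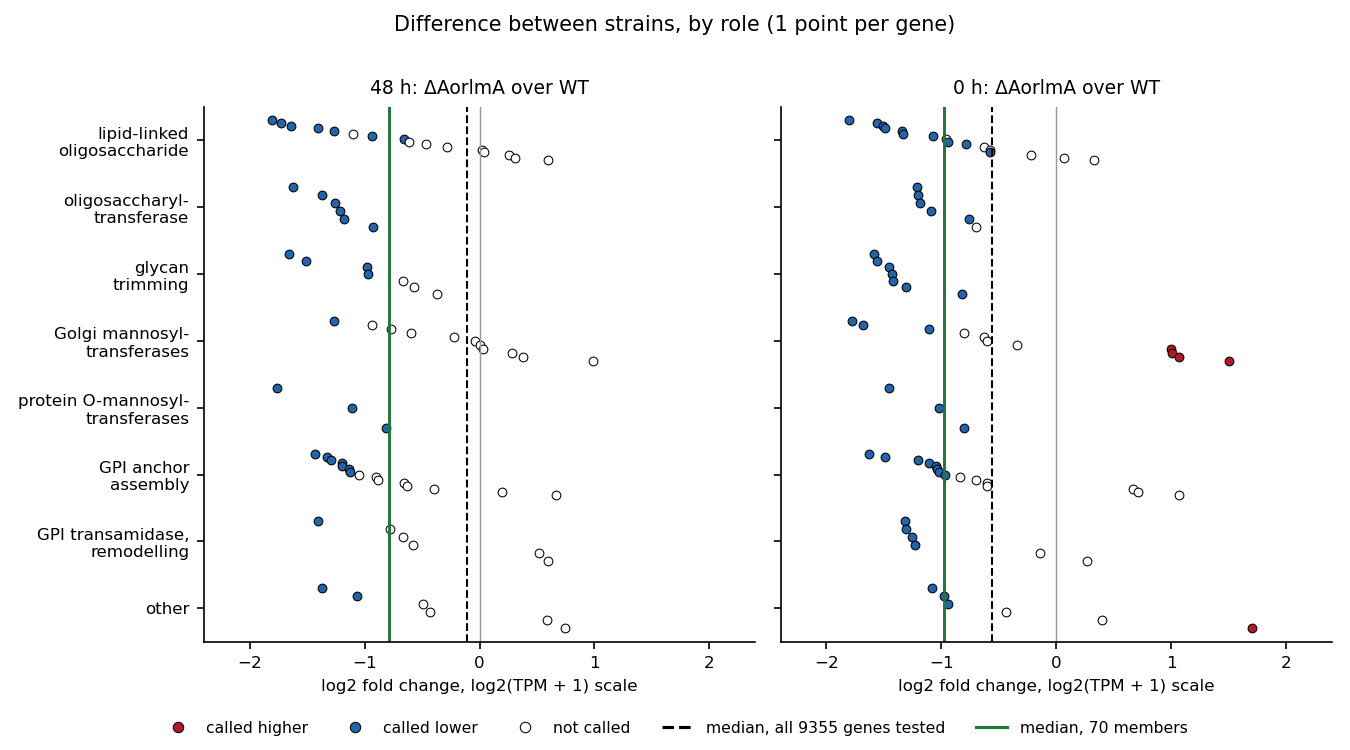
Log2 fold change of ΔAorlmA over WT on the log2(TPM + 1) scale (x axis) for each of the 70 genes tested, in rows by role, at 48 h (left panel) and at 0 h (right panel). Filled points are genes called by limma at an adjusted p under 0.05, red higher and blue lower in ΔAorlmA. The dashed line is the median of all 9355 genes tested (−0.11 at 48 h and −0.56 at 0 h) and the green line that of the members (−0.79 and −0.98). The oligosaccharyltransferase and trimming rows lie wholly below 0 in both panels, and the Golgi row spans 0.

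The calls at 0 h depended on the scaling more than those at 48 h. With a median-of-ratios scaling, which puts the median of all genes at −0.06 at 0 h and 0.01 at 48 h, limma called 15 members lower and 8 higher at 0 h and 29 lower and 0 higher at 48 h. All genes then had 11.0% lower and 14.3% higher at 0 h, and 12.5% lower and 10.7% higher at 48 h. Relative to the median of all genes, the members' median stood at −0.42 as deposited, −0.39 with that scaling and −0.38 with quantile normalization at 0 h, and at −0.68, −0.66 and −0.60 at 48 h. Single libraries moved the counts too: 14 members were lower at 48 h without the second or without the third ΔAorlmA library at 48 h, 18 without the first WT library at 48 h and 16 without the second or without the third. At 0 h, 28 were lower without the third ΔAorlmA library and 27 without the third WT library, and the 5 higher calls became 0 without that WT library. Without both first ΔAorlmA libraries, which stood nearest other groups, 41 were lower at 48 h and 54 at 0 h. The 15 members called lower at 0 h under all 3 scalings were DOLPP1, ALG6, ALG13, CWH41, HEX1, PMT4, GPI10, GPI16, GPI17, the longer GPI7 locus, MNN11 AOL_s00043g601, MNN9 AOL_s00097g326 and 3 of the 4 MNS1-type genes, and each was also called without both first ΔAorlmA libraries. Every other lower call at 0 h was lost with the median-of-ratios scaling.

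**Figure D2:**
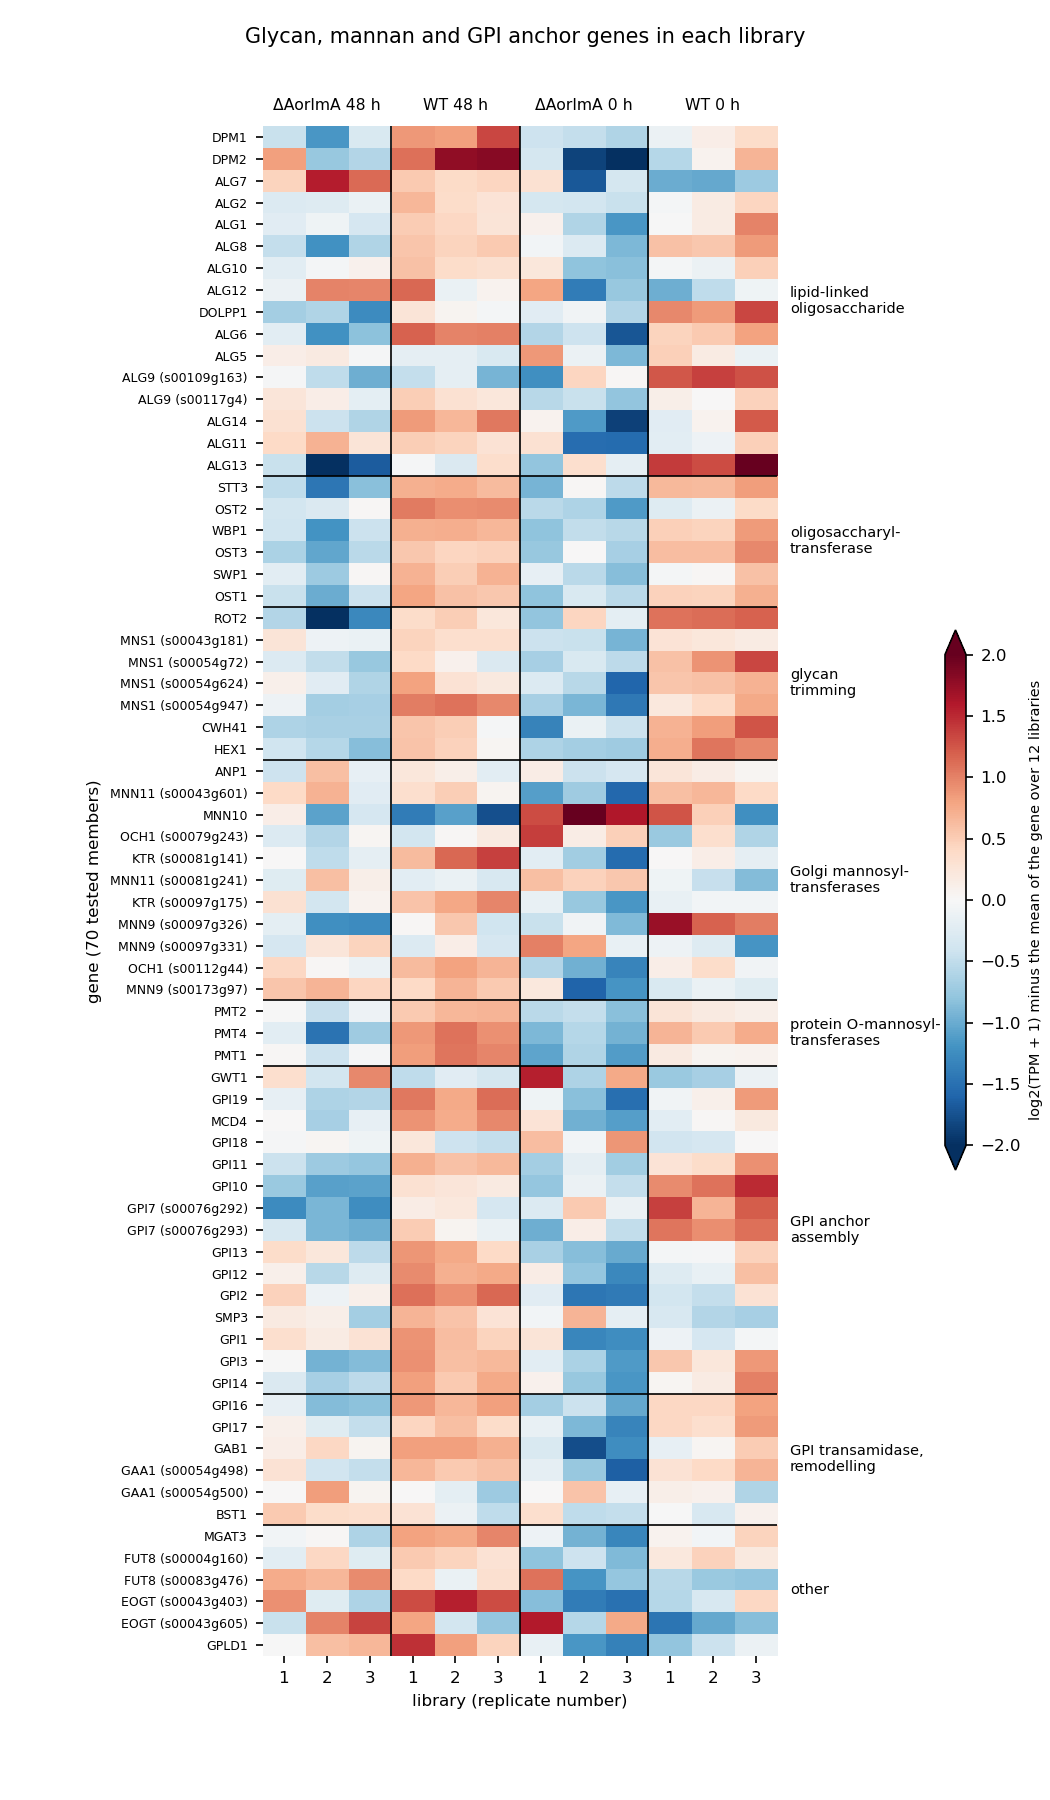
Levels of the glycosylation genes in each of the 12 libraries, in rows by gene and role and in columns by library, with ΔAorlmA at 48 h, WT at 48 h, ΔAorlmA at 0 h and WT at 0 h from left to right. Colour gives log2(TPM + 1) minus the gene's own mean over the 12 libraries. The columns of ΔAorlmA at 48 h are lower than those of WT at 48 h in most rows, and summed levels are 3083 to 3399 TPM in ΔAorlmA at 48 h and 5040 to 5282 TPM in WT at 48 h.

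DPM1 (AOL_s00004g269), the catalytic subunit of dolichol phosphate mannose synthase, was lower in ΔAorlmA at 48 h. It had 122, 73.2 and 135 TPM in ΔAorlmA at 48 h, against 303, 292 and 422 TPM in WT at 48 h. In the 0 h libraries it had 124, 119 and 109 TPM in ΔAorlmA, against 153, 182 and 214 TPM in WT. The strains overlapped at neither time, and the 9 libraries other than those of WT at 48 h lay between 73.2 and 214 TPM. On the log2 scale it fell by 1.64 ± 0.27 (SE) in ΔAorlmA at 48 h (limma, adjusted p = 0.00504), a call that held under every other setting tried. The difference at 0 h was −0.63 ± 0.27 (adjusted p = 0.0759), and −0.07 (adjusted p = 0.861) with the median-of-ratios scaling. Over time the log2 change was −0.14 in ΔAorlmA (adjusted p = 0.739) and 0.88 ± 0.27 in WT (adjusted p = 0.0176). The difference between these time changes was −1.02 ± 0.38 (adjusted p = 0.122), so a different response of the strains was not shown. Exact permutation tests (two-sided, 3 against 3 libraries) gave p = 0.1 for both strain comparisons and for time in WT, the smallest such a test allows, and p = 0.9 for time in ΔAorlmA. The WT time call was lost without the first WT library at 0 h (0.76, adjusted p = 0.0707), the second (0.88, 0.0514) or the third WT library at 48 h (0.72, 0.0831).

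The other genes of lipid-linked oligosaccharide assembly were a mixed group. Including DPM1, 7 of 16 were lower at 48 h (against 14.7% of all genes) and 10 of 16 at 0 h (against 33.8%). Median changes were −0.63 and −0.95 on the log2 scale. ALG6 (AOL_s00078g319), which in yeast adds the first glucose, had 22.7, 10.9 and 14.5 TPM in ΔAorlmA at 48 h, against 61.0, 53.9 and 54.2 TPM in WT at 48 h. It fell by 1.81 ± 0.36 in ΔAorlmA at 48 h (adjusted p = 0.00801) and by 1.49 ± 0.36 at 0 h (adjusted p = 0.00749, limma), and was named here after its values were seen. ALG8, which adds the next glucose, was lower at both times (−1.27 and −1.07), whereas ALG10, which adds the last one, was called at neither (−0.47 and −0.58). DPM2, a small regulatory subunit of the DPM1 enzyme in animals, was lower at both times (−1.73 and −1.51), though its coding length lies near that of a sequenced fragment and its level is less certain. ALG13, which in yeast forms the enzyme of the second N-acetylglucosamine step with ALG14, was lower at both times (−1.41 and −1.80), and ALG14 at 0 h (−1.33). Of the 7 calls of the group at 48 h, 2 were left without the second ΔAorlmA or the third WT library at 48 h, 3 without the third ΔAorlmA or the second WT library and 4 without the first WT library. Of the 10 at 0 h, 4 were left without the third library of ΔAorlmA or of WT at 0 h and 6 without the second of either.

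DOLPP1 (AOL_s00076g351), the phosphatase that recycles dolichol pyrophosphate after the transfer, was low in every library. It had 5.88, 6.20 and 3.57 TPM in ΔAorlmA at 48 h, against 12.2, 10.4 and 9.64 TPM in WT at 48 h. Values at 0 h were 8.39, 9.46 and 6.31 TPM in ΔAorlmA, against 20.4, 18.7 and 26.6 TPM in WT. The strains did not overlap at either time. It fell by 0.94 ± 0.29 at 48 h (limma, adjusted p = 0.0346) and by 1.34 ± 0.29 at 0 h (adjusted p = 0.00482). The 48 h call was lost in 7 of the 12 fits that left out 1 library, the weakest without the third ΔAorlmA library at 48 h (−0.73, adjusted p = 0.148).

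ALG7 and an ALG9-type gene were not called lower at 48 h. ALG7 (AOL_s00215g663), which in yeast starts the chain by placing N-acetylglucosamine phosphate on dolichol, had 58.6, 129 and 95.6 TPM in ΔAorlmA at 48 h, against 62.3, 56.4 and 58.3 TPM in WT at 48 h. The libraries at 0 h held 53.1, 12.6 and 33.6 TPM in ΔAorlmA, against 21.2, 20.7 and 25.5 TPM in WT. The strains overlapped at both times, and both had their highest values at 48 h. The ALG9-type mannosyltransferase (AOL_s00109g163) had 10.6, 7.27 and 4.97 TPM in ΔAorlmA at 48 h, against 7.46, 9.44 and 5.20 TPM in WT at 48 h. At 0 h it had 4.02, 14.8 and 10.9 TPM in ΔAorlmA, against 26.8, 29.6 and 27.5 TPM in WT. WT at 0 h thus stood above the other groups, which overlapped. It fell by 1.56 ± 0.41 in ΔAorlmA at 0 h (limma, adjusted p = 0.0115), a call lost with the median-of-ratios scaling (−1.04, adjusted p = 0.0832) and with quantile normalization (−1.09, adjusted p = 0.0631). This gene has no Swiss-Prot match. Another ALG9-type gene (AOL_s00117g4), which matches ALG9 in Swiss-Prot, was called lower at 0 h (−0.79). That limma call was lost with the median-of-ratios scaling (−0.25, adjusted p = 0.362) and with quantile normalization (−0.40, adjusted p = 0.154).

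The oligosaccharyltransferase, the complex that transfers the finished oligosaccharide to protein, was lower as a whole. All 6 subunit genes were called lower at 48 h (median −1.24 on the log2 scale) and 5 of 6 at 0 h (median −1.14), the exception being SWP1 at 0 h (−0.70, limma adjusted p = 0.0549). Of all genes, 14.7% were called lower at 48 h and 33.8% at 0 h. Summed over the 6 genes, the libraries held 418, 298 and 447 TPM in ΔAorlmA at 48 h, against 948, 878 and 886 TPM in WT at 48 h. At 0 h the sums were 361, 447 and 341 TPM in ΔAorlmA and 704, 711 and 920 TPM in WT. The ΔAorlmA sums at either time lay below every WT sum at either time.

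STT3 (AOL_s00007g122), the catalytic subunit, had 62.1, 32 and 49.5 TPM in ΔAorlmA at 48 h, against 146, 149 and 138 TPM in WT at 48 h. The 0 h levels were 46.0, 90.8 and 61.5 TPM in ΔAorlmA, against 140.3, 139 and 160 TPM in WT. All 6 ΔAorlmA libraries lay below all 6 WT libraries. STT3 fell by 1.62 ± 0.29 at 48 h (limma, adjusted p = 0.00665) and by 1.19 ± 0.29 at 0 h (adjusted p = 0.00823). WBP1 (AOL_s00078g434), a structural subunit, had 62.8, 36.0 and 61.5 TPM in ΔAorlmA at 48 h, against 138, 138 and 132 TPM in WT at 48 h. Its levels at 0 h were 47.5, 58.8 and 56.8 TPM in ΔAorlmA, against 117, 114 and 152 TPM in WT, so that it too separated the strains in all 12 libraries. WBP1 fell by 1.37 ± 0.26 at 48 h (adjusted p = 0.00683) and by 1.21 ± 0.26 at 0 h (adjusted p = 0.00445).

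OST2 (AOL_s00078g106), the small subunit known as DAD1 in animals, had 68.6, 72.4 and 90.6 TPM in ΔAorlmA at 48 h, against 183, 169 and 172 TPM in WT at 48 h. In the 0 h libraries it had 60.7, 57.8 and 39.9 TPM in ΔAorlmA, against 74.1, 82.0 and 116 TPM in WT. WT at 48 h stood above all other libraries, and the strains did not overlap at 0 h either. OST2 fell by 1.18 ± 0.25 at 48 h (limma, adjusted p = 0.00978) and by 0.76 ± 0.25 at 0 h (adjusted p = 0.0284). In WT it was the subunit called higher at 48 h than at 0 h, by 0.97 ± 0.25 (adjusted p = 0.00781), while the change in ΔAorlmA was 0.55 (adjusted p = 0.127). At 48 h the 6 calls held with both other scalings, and 5 held in every fit that left out 1 library, SWP1 being the exception. At 0 h the 5 calls became 0 with the median-of-ratios scaling (STT3 −0.64, adjusted p = 0.116, and WBP1 −0.66, adjusted p = 0.0635), and that of OST2 was also lost with quantile normalization (0.109) and without the third ΔAorlmA library (0.108), the second WT library (0.0564) or the third WT library at 0 h (0.122).

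**Figure D3:**
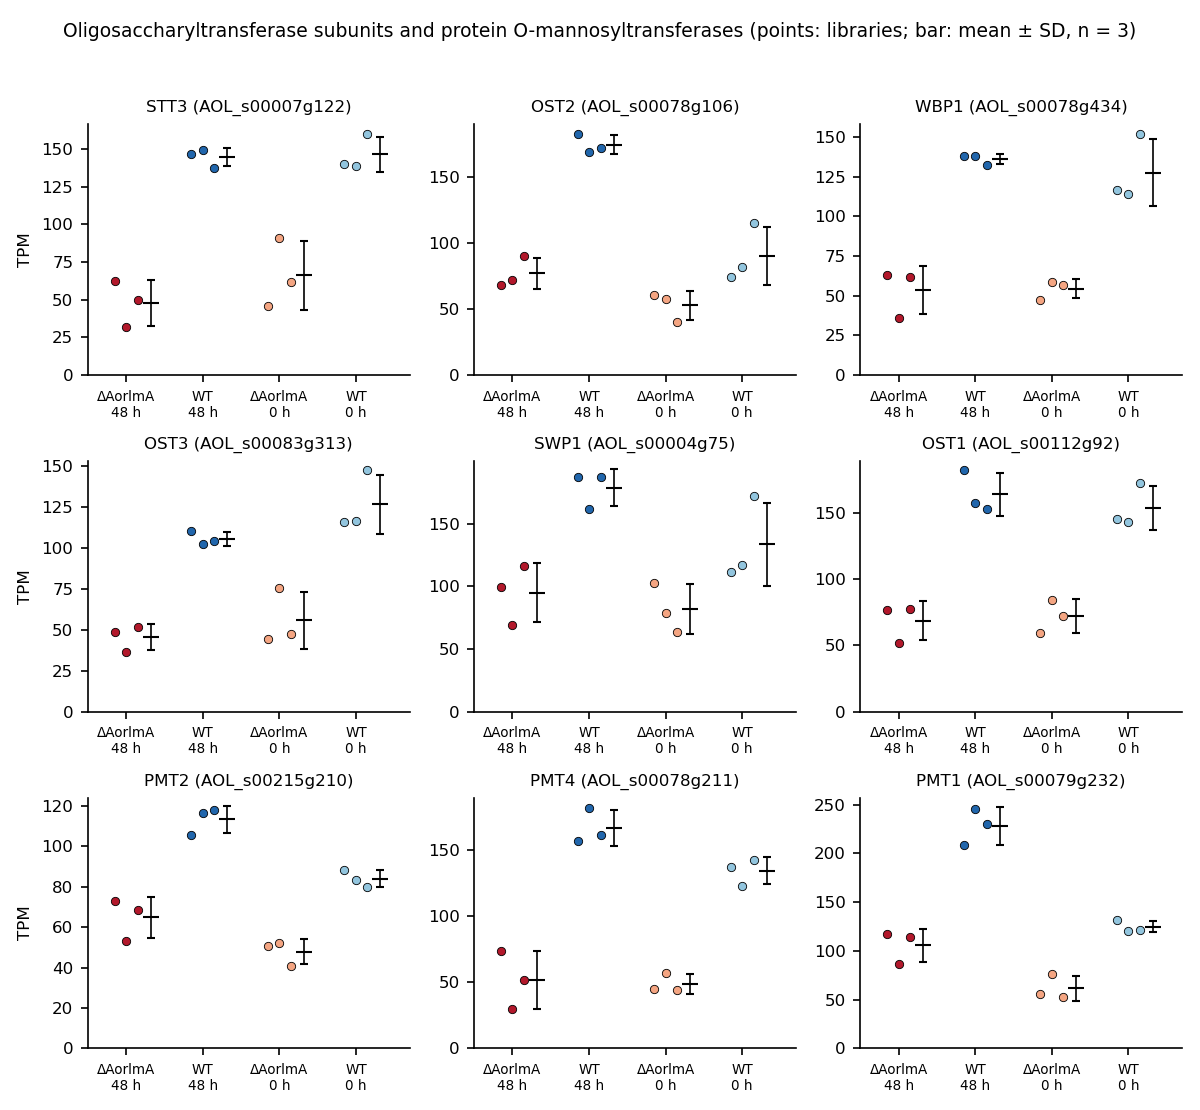
TPM of the 6 oligosaccharyltransferase genes and the 3 protein O-mannosyltransferase genes (y axis, from 0) in each library, in ΔAorlmA at 48 h, WT at 48 h, ΔAorlmA at 0 h and WT at 0 h from left to right. Points are libraries and bars give the mean ± SD (n = 3). At 48 h every ΔAorlmA library lies below every WT library in all 9 panels, as for STT3 with 32 to 62.1 TPM in ΔAorlmA and 138 to 149 TPM in WT.

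Of the 7 genes grouped as enzymes that trim the transferred chain, 4 were lower at 48 h (against 14.7% of all genes) and 7 at 0 h (against 33.8%). Median changes were −0.97 and −1.43 on the log2 scale. HEX1, a beta-N-acetylhexosaminidase placed in this group by its annotation alone, is among the lower genes at both times. ROT2 (AOL_s00007g456), the catalytic subunit of glucosidase II, had 22.1, 7.60 and 13.2 TPM in ΔAorlmA at 48 h, against 43.6, 48.0 and 39.6 TPM in WT at 48 h. Values at 0 h were 19.0, 45.6 and 29.5 TPM in ΔAorlmA, against 72.7, 74.01 and 78.0 TPM in WT. The strains were apart at both times. ROT2 fell by 1.66 ± 0.37 at 48 h (limma, adjusted p = 0.0113) and by 1.31 ± 0.37 at 0 h (adjusted p = 0.0148, lost with the median-of-ratios scaling at 0.132 and without the third WT library at 0 h at 0.0516). Glucosidase I (CWH41), which removes the outermost glucose before it, was also called lower at both times (−0.98 and −1.56), but its call at 48 h, with an adjusted p of 0.0486, was lost with both other scalings and without any 1 of 10 libraries.

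A mannosidase of the MNS1 type (AOL_s00054g947) had 24.3, 15.9 and 16.2 TPM in ΔAorlmA at 48 h, against 54.3, 56.5 and 52.0 TPM in WT at 48 h. The libraries at 0 h held 16.1, 13.3 and 9.05 TPM in ΔAorlmA, against 30.3, 34.9 and 44.8 TPM in WT. No ΔAorlmA library reached a WT library. It fell by 1.51 ± 0.29 at 48 h (limma, adjusted p = 0.00716) and by 1.46 ± 0.29 at 0 h (adjusted p = 0.00341), and both calls held with both other scalings and in every fit that left out 1 library. A second MNS1-type gene (AOL_s00054g72) had 5.12, 4.23 and 3.38 TPM in ΔAorlmA at 48 h, against 8.74, 6.81 and 5.05 TPM in WT at 48 h, and these groups overlapped. At 0 h it had 3.64, 4.98 and 4.13 TPM in ΔAorlmA, against 10.01, 12.7 and 17.5 TPM in WT, with a gap between the strains. Its change was −0.57 at 48 h (adjusted p = 0.172) and −1.43 ± 0.30 at 0 h (adjusted p = 0.0043). There are 4 MNS1-type genes, and reads that match more than 1 of them may have been split in the authors' counting, so the level of each is uncertain to that extent. Of the 4 trimming genes lower at 48 h, 2 were called without the second or the third ΔAorlmA library or the first or second WT library at 48 h.

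HEX1 (AOL_s00080g286), a beta-N-acetylhexosaminidase, was barely expressed and differed by a wide ratio. It had 1.00, 0.78 and 0.46 TPM in ΔAorlmA at 48 h, against 2.93, 2.64 and 1.71 TPM in WT at 48 h. The 0 h levels were 0.72, 0.65 and 0.62 TPM in ΔAorlmA, against 3.35, 4.55 and 4.16 TPM in WT. No ΔAorlmA library passed 1.00 TPM and no WT library fell under 1.71 TPM. The ratio of the mean levels, ΔAorlmA over WT, was 0.308 at 48 h and 0.165 at 0 h, while the log2(TPM + 1) changes, which understate such low genes, were −0.97 ± 0.24 (limma, adjusted p = 0.0164) and −1.59 ± 0.24 (adjusted p = 0.00115). The call at 48 h was lost without the second or the third ΔAorlmA library (0.0502 and 0.0798) or the first or second WT library at 48 h (0.0553 and 0.0608).

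The Golgi mannosyltransferases, which in yeast start and extend the mannan outer chain, were called lower at shares near those of all genes. At 48 h 1 of the 11 tested was lower (9.09%, against 14.7% of all genes). At 0 h 3 were lower (27.3%, against 33.8%) and 4 higher (36.4%, against 8.87%). Median changes were −0.04 at 48 h and −0.60 at 0 h on the log2 scale. A KTR-type gene (AOL_s00081g141), of a yeast family that adds mannose to O-linked and N-linked chains, was the lower one at 48 h. It had 43.2, 30.02 and 38.1 TPM in ΔAorlmA at 48 h, against 67.3, 96.7 and 113 TPM in WT at 48 h. Its levels at 0 h were 37.2, 26.4 and 14.2 TPM in ΔAorlmA, against 43.5, 47.5 and 37.9 TPM in WT. The strains did not overlap at either time, though the gap at 0 h was narrow. It fell by 1.27 ± 0.34 at 48 h (limma, adjusted p = 0.0206), a call lost without the second or the third ΔAorlmA or the second or the third WT library at 48 h (adjusted p from 0.0678 to 0.081), and its change at 0 h was −0.80 (adjusted p = 0.0697).

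The more abundant KTR-type gene (AOL_s00097g175) had 201, 126 and 170.3 TPM in ΔAorlmA at 48 h, against 242, 277 and 320 TPM in WT at 48 h. In the 0 h libraries it had 146, 95.1 and 72.1 TPM in ΔAorlmA, against 145, 156 and 156 TPM in WT. The groups were apart at 48 h and overlapped at 0 h by 1 library. Its changes, −0.77 at 48 h (limma, adjusted p = 0.0611) and −0.60 at 0 h (adjusted p = 0.0946), did not pass the threshold.

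MNN11 is in yeast a subunit of a mannan polymerase complex. AOL_s00043g601 carries its KEGG label, while its Swiss-Prot match is to GMH3. This gene, called MNN11 here, was lower at 0 h, while its strain groups overlapped at 48 h. It had 56.0, 69.2 and 35.9 TPM in ΔAorlmA at 48 h, against 53.4, 59.9 and 43.8 TPM in WT at 48 h. Values at 0 h were 19.2, 25.5 and 13.5 TPM in ΔAorlmA, against 64.8, 67.3 and 56.0 TPM in WT. ΔAorlmA at 0 h thus stood below every other library. It fell by 1.68 ± 0.30 at 0 h (limma, adjusted p = 0.00234), against a difference of −0.00 at 48 h (adjusted p = 0.995). Over time it rose by 1.41 in ΔAorlmA (adjusted p = 0.0092), and its change in WT was −0.26 (adjusted p = 0.494). The time changes of the strains differed by 1.68 ± 0.43 (adjusted p = 0.0463), the 1 interaction call among the members, where 4.43% of all genes were called. That call was lost with the median-of-ratios scaling (1.28, adjusted p = 0.0969), with quantile normalization (1.47, adjusted p = 0.0566) and in 9 of the 12 fits that left out 1 library (adjusted p up to 0.125).

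An MNN9-type gene (AOL_s00097g326), of the yeast family that extends the outer chain backbone, was expressed at a low level. It had 1.65, 0.30 and 0.27 TPM in ΔAorlmA at 48 h, against 2.07, 3.39 and 1.29 TPM in WT at 48 h, with overlap. The libraries at 0 h held 1.23, 1.90 and 0.64 TPM in ΔAorlmA, against 9.04, 5.90 and 5.14 TPM in WT, without overlap. It fell by 1.78 ± 0.37 at 0 h (limma, adjusted p = 0.00412), and its change at 48 h was −0.94 (adjusted p = 0.0781). An OCH1-type gene (AOL_s00112g44), whose yeast counterpart starts the outer chain, was also lower at 0 h (−1.11 ± 0.26, adjusted p = 0.00634).

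Another MNN9-type gene (AOL_s00097g331), separated from the first by 4 other genes, was higher at 0 h. It had 24.4, 36.8 and 42.7 TPM in ΔAorlmA at 48 h, against 25.5, 34.2 and 24.4 TPM in WT at 48 h. At 0 h it had 63.5, 54.4 and 27.8 TPM in ΔAorlmA, against 28.8, 25.6 and 13.2 TPM in WT, and the strains overlapped at both times. The difference at 0 h was 1.07 ± 0.38 (limma, adjusted p = 0.0377), and was singled out, like the other genes higher at 0 h, after its values were seen.

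MNN10 (AOL_s00043g645), another polymerase subunit, had 81.2, 34.9 and 58.4 TPM in ΔAorlmA at 48 h, against 27.4, 34.3 and 21.2 TPM in WT at 48 h. The 0 h levels were 185, 319 and 227 TPM in ΔAorlmA, against 178, 103 and 30.9 TPM in WT. Every ΔAorlmA library was above every WT library at the same time, by a narrow gap at 48 h and at 0 h. Its change was 0.99 at 48 h (limma, adjusted p = 0.173) and 1.50 ± 0.52 at 0 h (adjusted p = 0.0346). A second MNN11-type gene (AOL_s00081g241) had 108, 97.04 and 103 TPM in ΔAorlmA at 0 h, against 66.7, 51.2 and 38.3 TPM in WT at 0 h, with no overlap (1.00 ± 0.27, adjusted p = 0.0125). The fourth gene called higher at 0 h, an OCH1-type gene (AOL_s00079g243), averaged under 1 TPM over all libraries (1.01, adjusted p = 0.04). These 4 calls became 0 without the third WT library at 0 h and 2 without any 1 of the 3 ΔAorlmA libraries at 0 h or the second WT library, but held with both other scalings. Members of the MNN9, MNN11 and OCH1 types have related copies in the genome, among which reads may be split, so their levels are uncertain to that extent.

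**Figure D4:**
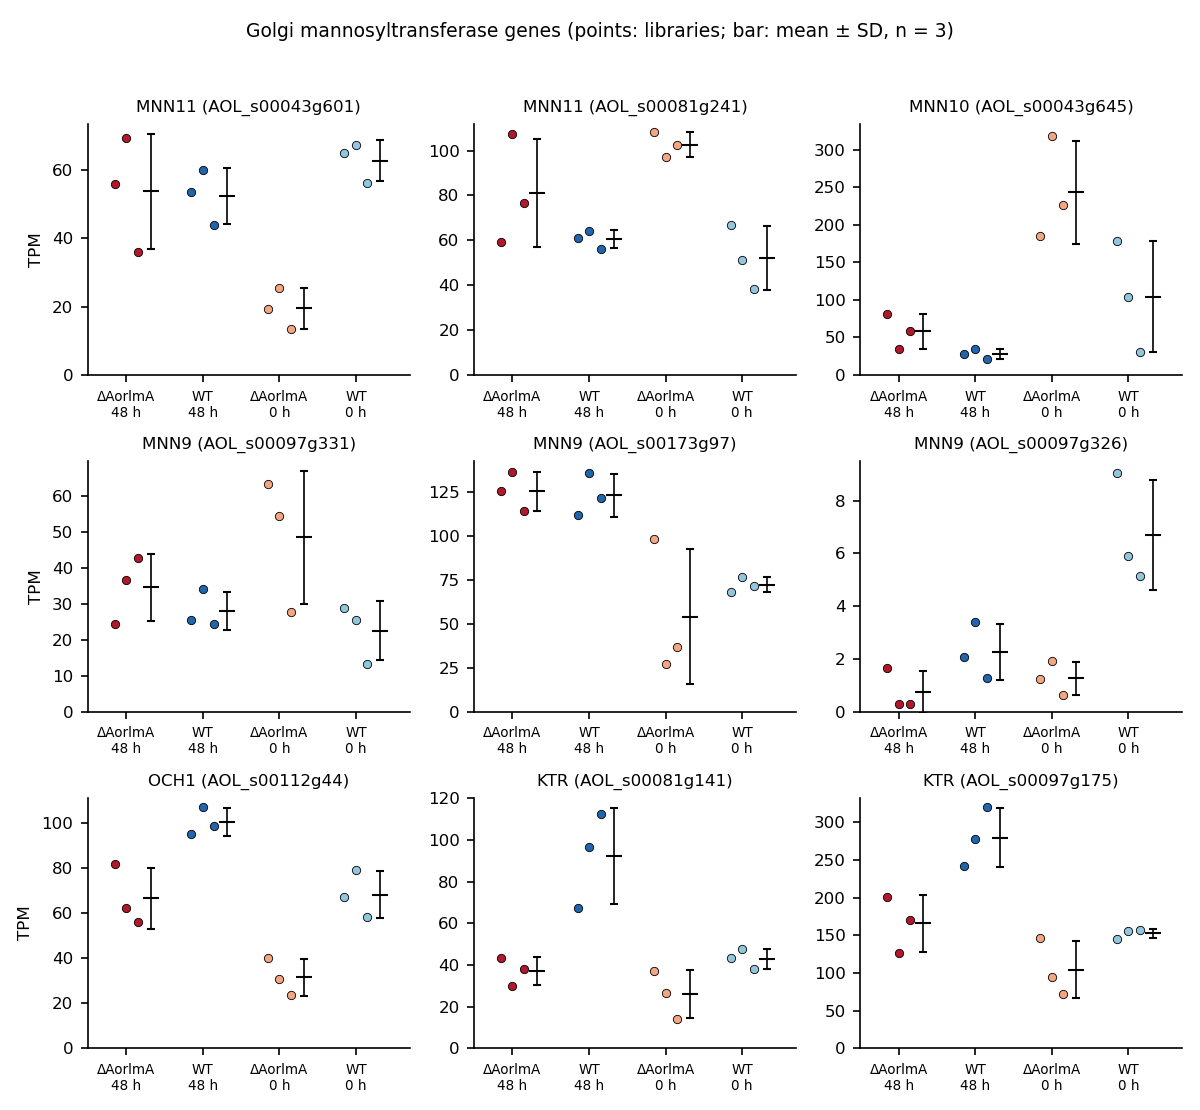
TPM of 9 Golgi mannosyltransferase genes (y axis, from 0) in each library, in ΔAorlmA at 48 h, WT at 48 h, ΔAorlmA at 0 h and WT at 0 h from left to right. Points are libraries and bars give the mean ± SD (n = 3), cut at 0 for MNN9 AOL_s00097g326 in ΔAorlmA at 48 h. MNN11 AOL_s00043g601 is low in ΔAorlmA at 0 h (13.5 to 25.5 TPM) and at 35.9 TPM or more in the other groups, while MNN10 is highest in ΔAorlmA at 0 h (185 to 319 TPM).

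The 3 protein O-mannosyltransferases were called lower at 48 h (against 14.7% of all genes) and at 0 h (against 33.8%). These enzymes place the first mannose on serine and threonine of proteins in the endoplasmic reticulum. Their summed level was 264, 169.8 and 234 TPM in ΔAorlmA at 48 h, against 471, 545 and 509.9 TPM in WT at 48 h. At 0 h it was 151, 186 and 137 TPM in ΔAorlmA, against 357, 327 and 345 TPM in WT. The sums of ΔAorlmA at either time lay under all WT sums.

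PMT4 (AOL_s00078g211), which in yeast acts on membrane and GPI-anchored proteins, had 73.6, 30.1 and 51.6 TPM in ΔAorlmA at 48 h, against 157, 182 and 162 TPM in WT at 48 h. Its levels at 0 h were 45.1, 57.1 and 43.9 TPM in ΔAorlmA, against 138, 123 and 143 TPM in WT. All ΔAorlmA libraries were below all WT libraries. PMT4 fell by 1.76 ± 0.29 at 48 h (limma, adjusted p = 0.00518) and by 1.46 ± 0.29 at 0 h (adjusted p = 0.00362), and both calls held with both other scalings and in every fit that left out 1 library. PMT1 (AOL_s00079g232) had 117, 86.4 and 114 TPM in ΔAorlmA at 48 h, against 208, 246 and 230.2 TPM in WT at 48 h. In the 0 h libraries it had 55.6, 76.2 and 52.7 TPM in ΔAorlmA, against 131, 121 and 122 TPM in WT. The strains were apart at each time, and both had higher levels at 48 h than at 0 h. PMT1 fell by 1.11 ± 0.23 at 48 h (adjusted p = 0.00857) and by 1.02 ± 0.23 at 0 h (adjusted p = 0.00513), the call at 0 h being lost with the median-of-ratios scaling (−0.47, adjusted p = 0.139). PMT2, the partner of PMT1 in yeast, was called lower at both times as well (−0.81 and −0.80), at 48 h not without the second or the third library of either strain, and at 0 h not with the median-of-ratios scaling (−0.26, adjusted p = 0.387) or quantile normalization (−0.52, adjusted p = 0.0648).

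Of the 15 GPI anchor assembly genes tested, 7 were lower at 48 h (against 14.7% of all genes) and 8 at 0 h (against 33.8%). Median changes were −1.05 and −0.97 on the log2 scale. The lower genes stood at several steps of the pathway. GPI3 (−1.33 at 48 h and −1.20 at 0 h), the catalytic subunit of the first step, and its partner GPI19 (−1.43 and −1.11) were lower at both times. GPI14 (−1.20 and −1.02), which adds the first mannose, was too, while GPI1, GPI12, GPI18 and GWT1, which act in the early steps and at the second mannose, were called in no comparison. MCD4, which adds the first phosphoethanolamine, was lower at 48 h (−1.13), and GPI13, which adds a later one, at 0 h (−0.97).

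GPI11 (AOL_s00075g218), needed in yeast for the late phosphoethanolamine steps, was the most abundant of these genes. It had 95.7, 77.3 and 75.2 TPM in ΔAorlmA at 48 h, against 212, 193 and 202 TPM in WT at 48 h. Values at 0 h were 79.9, 114 and 79.7 TPM in ΔAorlmA, against 156, 168 and 244 TPM in WT. Every ΔAorlmA library lay below every WT library. GPI11 fell by 1.29 ± 0.25 at 48 h (limma, adjusted p = 0.00716) and by 1.04 ± 0.25 at 0 h (adjusted p = 0.00691, lost with the median-of-ratios scaling at 0.115). GPI10 (AOL_s00076g131), which adds the third mannose, had 4.03, 2.97 and 3 TPM in ΔAorlmA at 48 h, against 9.40, 8.91 and 8.47 TPM in WT at 48 h. The libraries at 0 h held 3.90, 6.74 and 5.06 TPM in ΔAorlmA, against 15.1, 16.8 and 22.7 TPM in WT. The strains were again apart in all 12 libraries. GPI10 fell by 1.20 ± 0.28 at 48 h (adjusted p = 0.0129) and by 1.63 ± 0.28 at 0 h (adjusted p = 0.00194), the first of these calls being lost without the third ΔAorlmA library at 48 h (0.0567).

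GPI7, which in yeast adds phosphoethanolamine to the second mannose, is annotated at a pair of neighbouring loci with no gene between them, so 1 gene model may have been split. The shorter locus has 294 coding bases, near the length of a sequenced fragment, so its level is less certain. The shorter (AOL_s00076g292) had 3.16, 4.28 and 3.18 TPM in ΔAorlmA at 48 h, against 10.03, 10.4 and 6.83 TPM in WT at 48 h. At 0 h it had 7.19, 13.3 and 8.13 TPM in ΔAorlmA, against 24.6, 14.9 and 22.1 TPM in WT. The strains did not overlap, and it fell by 1.14 ± 0.32 at 48 h (limma, adjusted p = 0.0242) and by 1.05 ± 0.32 at 0 h (adjusted p = 0.0199). Both calls were lost without some libraries, at 48 h at most with an adjusted p of 0.0891 (without the third ΔAorlmA library) and at 0 h with 0.0707 (without the third WT library), and the call at 0 h with both other scalings. The longer locus changed by −0.88 (adjusted p = 0.0689) and −1.49 (adjusted p = 0.00536). GPI2 (AOL_s00079g52), a subunit of the enzyme of the first step, had 94.8, 63.6 and 73.8 TPM in ΔAorlmA at 48 h, against 148, 130.4 and 154 TPM in WT at 48 h. The 0 h levels were 58.7, 24.6 and 24.98 TPM in ΔAorlmA, against 53.0, 49.1 and 83.6 TPM in WT. The strains were apart at 48 h and overlapped at 0 h, and neither difference passed the test (−0.90 with an adjusted p of 0.0693 at 48 h, and −0.84 with 0.0608 at 0 h). Of the 7 calls of the group at 48 h, 1 was left without the third and 2 without the second ΔAorlmA library, 2 without the first and 3 without the second or the third WT library. Of the 8 at 0 h, 3 were left without the third ΔAorlmA or the third WT library.

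The GPI transamidase joins the finished anchor to proteins. Its genes and that of the remodelling enzyme BST1 gave 1 lower gene of 6 at 48 h, a share near that of all genes (14.7%). At 0 h 4 of 6 were lower (against 33.8% of all genes), and 2 of these calls held with both other scalings. GPI16 (AOL_s00215g854), a transamidase subunit, had 72.0, 44.0 and 45.6 TPM in ΔAorlmA at 48 h, against 149, 129.7 and 144 TPM in WT at 48 h. Its levels at 0 h were 50.1, 60.1 and 39.3 TPM in ΔAorlmA, against 109, 109 and 143 TPM in WT. ΔAorlmA lay below WT in all libraries. It fell by 1.41 ± 0.26 at 48 h (limma, adjusted p = 0.00683) and by 1.26 ± 0.26 at 0 h (adjusted p = 0.00407), and both calls held with both other scalings and in every fit that left out 1 library. GAB1 (AOL_s00004g249), another subunit, had 23.8, 29.2 and 22.3 TPM in ΔAorlmA at 48 h, against 38.8, 38.7 and 35.8 TPM in WT at 48 h. In the 0 h libraries it had 17.3, 5.60 and 8.50 TPM in ΔAorlmA, against 19.2, 22.1 and 31.0 TPM in WT, and the strains overlapped at neither time. Its change was −0.58 at 48 h (adjusted p = 0.236) and −1.23 ± 0.35 at 0 h (adjusted p = 0.0156, lost with both other scalings, and without the second ΔAorlmA or the third WT library at 0 h). GPI17 and the GAA1-type gene AOL_s00054g498 were lower at 0 h (−1.32 and −1.31). The second gene with a GAA1 label, AOL_s00054g500, was called in no comparison, and its Swiss-Prot match is a rhomboid protein.

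The remaining members are annotated with glycan enzymes best known from animals. An EOGT-type gene (AOL_s00043g403), in animals an N-acetylglucosaminyltransferase of secreted proteins, had 7.15, 2.67 and 1.83 TPM in ΔAorlmA at 48 h, against 9.73, 11.7 and 9.72 TPM in WT at 48 h. Values at 0 h were 1.41, 0.64 and 0.54 TPM in ΔAorlmA, against 1.92, 2.46 and 4.75 TPM in WT. The strains did not overlap at either time, and both had more at 48 h. It fell by 1.37 ± 0.39 at 48 h (limma, adjusted p = 0.0272) and by 1.08 ± 0.39 at 0 h (adjusted p = 0.0412). Each of these calls was lost without any 1 of several libraries, with the highest adjusted p at −1.05 (adjusted p = 0.124) without the third ΔAorlmA library at 48 h and −0.80 (adjusted p = 0.17) without the third WT library at 0 h, and the call at 0 h was also lost with both other scalings. The second EOGT-type gene (AOL_s00043g605) had 138, 30.2 and 77.6 TPM in ΔAorlmA at 0 h, against 15.8, 21.9 and 24.6 TPM in WT at 0 h, and was the fifth member called higher (1.70 ± 0.58, adjusted p = 0.0324). It is separated by 3 genes from MNN11 AOL_s00043g601, which was lower in that comparison.

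A FUT8-type gene (AOL_s00004g160) had 22.1, 34.7 and 21.5 TPM in ΔAorlmA at 48 h, against 37.5, 35.4 and 31.5 TPM in WT at 48 h, with overlap. The libraries at 0 h held 14.3, 19.0 and 13.4 TPM in ΔAorlmA, against 29.8, 35.5 and 29.5 TPM in WT, without overlap. It fell by 0.98 ± 0.27 at 0 h (limma, adjusted p = 0.0128), a call lost with both other scalings and without the second WT library at 0 h (0.053). The abundant FUT8-type gene (AOL_s00083g476) had 242, 227 and 278 TPM in ΔAorlmA at 48 h, against 190.3, 131 and 179 TPM in WT at 48 h. At 0 h it had 306, 63.0 and 83.9 TPM in ΔAorlmA, against 97.3, 86.0 and 83.1 TPM in WT. It was above WT in every ΔAorlmA library at 48 h, but at 0 h 1 library of 3 carried the higher mean, and it was called in no comparison. GPLD1 (AOL_s00043g772), an enzyme that in animals cuts GPI anchors, had 44.4, 68.5 and 71.7 TPM in ΔAorlmA at 48 h, against 124.85, 80.1 and 61.1 TPM in WT at 48 h. The 0 h levels were 40.2, 19.4 and 17.0 TPM in ΔAorlmA, against 25.5, 32.8 and 41.3 TPM in WT. The strains overlapped at both times.

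The comparison of 48 h with 0 h asked how these genes differed between the times within a strain. The samples hold no 48 h group without nematode extract, so trap induction and time in culture cannot be told apart. In WT, 11 members rose and 9 fell, where limma called 17.6% of all genes higher and 28.7% lower. Their median change was 0.24 on the log2 scale, against −0.25 over all genes, and 55 of the 70 lay above the median of all genes. The balance in WT depended on the scaling: 23 rose and 7 fell with the median-of-ratios scaling, where 24.4% of all genes were higher and 23.2% lower, and 18 rose and 3 fell with quantile normalization, where 24.3% were higher and 21.3% lower. In ΔAorlmA, 10 rose and 3 fell, where 13.0% of all genes were higher and 8.52% lower, and the median change was 0.21 against 0.14 over all genes. The WT comparison and the strain comparison at 48 h share the WT libraries at 48 h, and the ΔAorlmA time comparison shares the ΔAorlmA libraries.

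Among the genes that rose, 5 were called in both strains: ALG7, PMT1, GPI2, the EOGT-type gene AOL_s00043g403 and GPLD1. The share of all genes called higher in both strains was not counted. ALG7 rose by 1.63 in ΔAorlmA (limma, adjusted p = 0.0209) and by 1.36 in WT (adjusted p = 0.0211). GPI2 rose by 1.18 in ΔAorlmA (adjusted p = 0.0295) and by 1.24 in WT (adjusted p = 0.0103). The EOGT-type gene rose by 1.27 in ΔAorlmA (adjusted p = 0.0381) and by 1.55 in WT (adjusted p = 0.0069), and GPLD1 by 1.31 (adjusted p = 0.0279) and 1.35 (adjusted p = 0.0103). PMT1 rose by 0.78 in ΔAorlmA (adjusted p = 0.0301) and by 0.86 in WT (adjusted p = 0.00808). The WT calls of PMT1, GPI2, the EOGT-type gene and GPLD1, with that of OST2, held with both other scalings and in every fit that left out 1 library. None of these 5 ΔAorlmA calls held in every such fit: without the second ΔAorlmA library at 0 h those of ALG7 (adjusted p = 0.0734), GPI2 (0.116), the EOGT-type gene (0.12) and GPLD1 (0.101) were lost, and without the third that of PMT1 (0.0877), which was also lost with the median-of-ratios scaling (0.61, adjusted p = 0.0686) and with quantile normalization (0.58, adjusted p = 0.0698). The WT call of ALG7 was lost without the first or second WT library at 0 h or any 1 of the WT libraries at 48 h (adjusted p from 0.0504 to 0.0614). Of the 11 rises in WT, 6 were called without the first or second WT library at 0 h or the second or the third at 48 h, and 19 members were called higher without the first ΔAorlmA library at 0 h.

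In ΔAorlmA, 3 of the 11 Golgi genes tested rose (against 13.0% of all genes) and 1, MNN10, fell (against 8.52%). The rises were of MNN11 AOL_s00043g601 and the MNN9-type gene AOL_s00173g97 by 1.41 each, and of the OCH1-type gene AOL_s00112g44 by 1.07 (limma, adjusted p = 0.0092, 0.0195 and 0.0149). The MNN11 and OCH1-type calls held with both other scalings and in every fit that left out 1 library. The MNN9-type call was lost in 3 of the 12 such fits (adjusted p up to 0.0825). GAB1 rose by 1.31 in ΔAorlmA (adjusted p = 0.0223, lost without the second or the third ΔAorlmA library at 0 h or the second at 48 h), and its change in WT was 0.66 (adjusted p = 0.142). In WT both KTR-type genes rose, AOL_s00081g141 by 1.06 (adjusted p = 0.0212) and AOL_s00097g175 by 0.86 (adjusted p = 0.0231), against changes of 0.58 and 0.70 in ΔAorlmA that did not pass the test. Both KTR-type calls were lost without the first WT library at 0 h and without the second or the third WT library at 48 h.

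The genes that fell in WT included the ALG9-type gene AOL_s00109g163, by 1.82 ± 0.41 (limma, adjusted p = 0.00372), ALG13, by 1.58 ± 0.44 (adjusted p = 0.0108), and MNN10, by 1.58 ± 0.52 (adjusted p = 0.0251). DOLPP1 (−0.96), GPI10 (−0.93), both GPI7 loci (−1.08 and −0.89), the MNN9-type gene AOL_s00097g326 (−1.26) and the MNS1-type gene AOL_s00054g72 (−0.87) made up the other 6. In ΔAorlmA, MNN10 fell by 2.09 ± 0.52 (adjusted p = 0.0168), the shorter GPI7 locus fell by 1.18 ± 0.32 (adjusted p = 0.0222) and ROT2 fell by 1.11 ± 0.37 (adjusted p = 0.0485). Of the 9 falls in WT, those of ALG9-type AOL_s00109g163 and ALG13 held with both other scalings and in every fit that left out 1 library. Of the 9, 2 were left without the third WT library at 48 h and 5 without the first or the third WT library at 0 h. In ΔAorlmA, 3 rises and 0 falls were called without the second ΔAorlmA library at 0 h, 3 rises without the third, 6 rises without the first or the third ΔAorlmA library at 48 h and 4 without the second. Without the first ΔAorlmA library at 0 h, which stood apart from its group, 26 members were called higher. Of the 3 falls in ΔAorlmA, 1 was called without the second or the third ΔAorlmA library at 48 h.

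**Figure D5:**
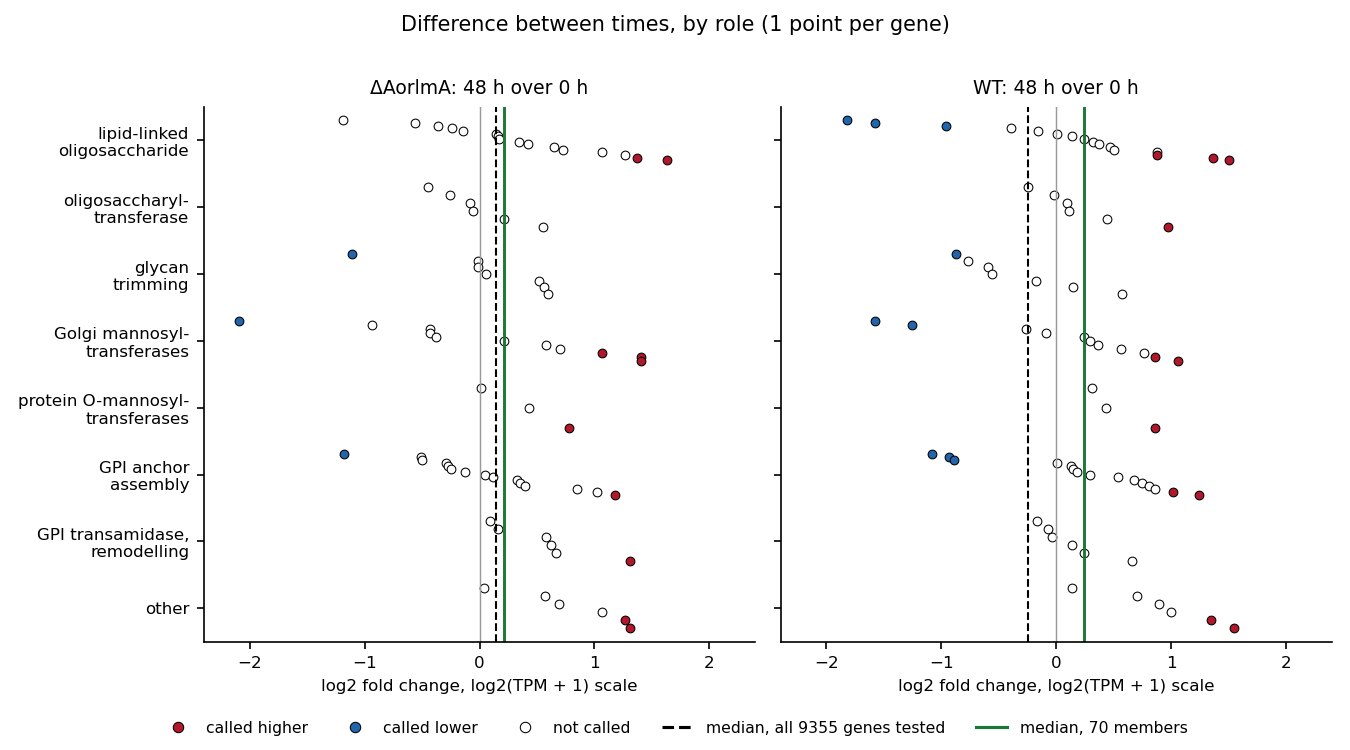
Log2 fold change of 48 h over 0 h on the log2(TPM + 1) scale (x axis) for each of the 70 genes tested, in rows by role, in ΔAorlmA (left panel) and WT (right panel). Filled points are genes called by limma at an adjusted p under 0.05, red higher and blue lower at 48 h. The dashed line is the median of all 9355 genes tested (0.14 in ΔAorlmA and −0.25 in WT) and the green line that of the members (0.21 and 0.24). Most points lie within 1 log2 unit of 0 in both panels.

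Genes next to these pathways were counted from further lists set by gene name. Of 12 genes that supply sugar nucleotides, 4 were lower in ΔAorlmA at 48 h (against 14.7% of all genes) and 8 at 0 h (against 33.8%). None was higher. The calls of this list and the next at 0 h are given as deposited. Of the members' 43 lower calls at 0 h, 15 were kept with the median-of-ratios scaling. The 4 genes of this list lower at 48 h were those that make GDP-mannose, a mannose donor. Phosphomannomutase (PMM, AOL_s00076g35) had 55.1, 32.1 and 43.0 TPM in ΔAorlmA at 48 h, against 151, 113 and 123 TPM in WT at 48 h, without overlap. It fell by 1.57 ± 0.34 at 48 h (limma, adjusted p = 0.0104) and by 1.58 ± 0.34 at 0 h (adjusted p = 0.00481). Of the pair annotated as GDP-mannose pyrophosphorylase, GMPP (AOL_s00210g253) fell at both times (−1.38 and −0.99) and MPG1 (AOL_s00078g50) at 48 h (−0.94; −0.14 at 0 h, adjusted p = 0.712). The isomerase MPI (AOL_s00006g15) fell by 0.78 at 48 h (adjusted p = 0.0497) and by 1.16 at 0 h (adjusted p = 0.00616). The GDP-mannose carrier VRG4 was called in neither strain comparison (−0.19 and −0.14).

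In glycan quality control, 2 of 4 genes were lower at 48 h (against 14.7% of all genes) and 3 of 4 at 0 h (against 33.8%). Protein disulfide isomerase (PDI1, AOL_s00083g18) had 496, 376 and 662 TPM in ΔAorlmA at 48 h, against 1062, 1502 and 1481 TPM in WT at 48 h, without overlap (−1.42 ± 0.40, limma adjusted p = 0.0259). OS9, a lectin that sorts misfolded glycoproteins, fell at both times (−1.10 and −1.10), and UGGT, which puts glucose back on misfolded ones, at 0 h (−1.34). PRKCSH (AOL_s00007g253), the partner subunit of ROT2 in glucosidase II, carries none of the pathway labels. It had 41.8, 14.5 and 27.6 TPM in ΔAorlmA at 48 h, against 99.9, 88.4 and 78.8 TPM in WT at 48 h. The gap resembled that of ROT2 in direction, and it fell by 1.75 ± 0.34 at 48 h (limma, adjusted p = 0.00745).

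Of 18 tested genes of GPI-anchored wall protein families, whose products receive these anchors, 2 were lower (11.1%, against 14.7% of all genes) and 0 higher in ΔAorlmA at 48 h. At 0 h 3 were lower (16.7%, against 33.8%) and 3 higher (16.7%, against 8.87%), and with the median-of-ratios scaling 1 was lower and 6 higher. The 2 lower at 48 h were a glucanosyltransferase of the GEL3 type (AOL_s00054g226, −2.00 ± 0.38, limma adjusted p = 0.00716) and an ECM33-type gene (AOL_s00170g40, −1.53 ± 0.30, adjusted p = 0.00743). Neither dolichol supply gene, RER2 or NUS1, was called in any comparison.

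The authors' deposited table of calls, which gives no fold changes, marked 26 members at 48 h (3 up and 23 down in ΔAorlmA) and 17 at 0 h (10 up and 7 down). At 48 h, 22 of them were also called by limma, and at 0 h 12 were, of 31 and 48 limma calls. These were matched without regard to direction. At 0 h the balance of directions was opposite: the authors marked more members up than down, where limma called 5 higher and 43 lower. The cause of that difference was not tested. The authors' table lists 6837 genes, among them 48 of the 74 members, so the other members could not be marked. Over time the authors' deposited table marked 10 members in ΔAorlmA (6 up and 4 down) and 23 in WT (17 up and 6 down). Of all 11479 genes, listed there or not, that table marks 24.1% at 48 h and 23.6% at 0 h between strains. Over time it marks 21.9% in ΔAorlmA and 39.5% in WT.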

How the data were processed

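The authors deposited gene levels as TPM (transcript shares corrected for length and library size) and, in an annotated table with KEGG and Swiss-Prot labels, as FPKM; both were rounded to 2 decimals and proportional within a library to 0.06%. Per the labels' protocols, libraries followed standard Illumina steps from total RNA. For the aligner, counter and genome build, versions and names were not given in the sources used here. Per the file headers, the authors also gave read counts per library and the percent of bases at quality 30 (94.32% to 94.72%). The deposited table named for raw counts per gene holds correlations between libraries, so limma on TPM took the place of a count test. Gene lengths were multiples of 3 for 99.98% of genes and are coding lengths. Low FPKM values fell on whole-fragment steps (100% within 0.15 of a whole number), which gave the assigned fragments, and depth limits the lowest genes. A total of 8 columns of group means and 3 tables were not used.

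Genes at 1 TPM or more in at least 3 of the 12 libraries were tested (9355) with limma 3.58.1 in R 4.3.3 on log2(TPM + 1): a mean per group, eBayes with a trend, two-sided tests, and Benjamini-Hochberg adjustment over all genes of a comparison. Fold changes on that scale understate those of low genes. The fit was tested on simulated data. Other settings were scalings, pseudocounts, filters, FPKM, a replicate block, fits of only 6 libraries, and leaving out libraries. The authors' own calls (other values, up or down) are used for comparison only. Values in every library are given for DPM1, for the called gene of lowest adjusted p of each role in each pairwise comparison and in the interaction, and for the 3 genes of highest mean level; genes named outside that rule are given for roles or were chosen after their values were seen. Members and lists were chosen with earlier results of these data known. All 74 locus tags matched the RefSeq table (assembly AOL24927 1.0), used only for names and neighbours. Same-numbered libraries did not deviate together (correlations of −0.316 to 0.188), so replicate numbers were not taken as pairs. A further list, of genes of the same machinery without these pathway labels, is not reported here in full.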

Additional observations from a re-analysis of the deposited data

Results flagged for a closer look

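The MNN11-type Golgi mannosyltransferase gene AOL_s00043g601 passed the test of a difference in time change between the strains as deposited, and lost that call under several other settings. The log2 change over time was larger in ΔAorlmA than in WT by 1.68 ± 0.43 (SE; limma interaction term, adjusted p = 0.0463). It was higher at 48 h in ΔAorlmA by 1.41, while its change in WT was −0.26. The call was lost with the median-of-ratios scaling (1.28, adjusted p = 0.0969), with quantile normalization (1.47, adjusted p = 0.0566), with a pseudocount of 0.1 and in 9 of the 12 fits that left out 1 library (adjusted p up to 0.125). It was the 1 such call among the 70 members tested, where 4.43% of all genes were called.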

How the results depend on the processing

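Of 7856 values computed under other settings, 7293 stayed on their side of the threshold, 159 passed it newly, 404 no longer passed it and 0 reversed (values past the threshold in neither setting count as staying, whatever their sign). At 48 h between strains 31 members were called, 29 to 33 under other settings with all libraries and 34 from the 6 libraries of that comparison alone. At 0 h, 48 were called and 23 with the median-of-ratios scaling. Over time in WT, 20 were called, 30 with that scaling and 31 from the 6 WT libraries alone. In ΔAorlmA, 13 were called over time, 1 from its 6 libraries alone and 25 without both first ΔAorlmA libraries. The interaction gave 1, against 0 with a pseudocount of 0.1 and 4 without both first libraries. SMP3 AOL_s00079g339 passed the interaction test with the median-of-ratios scaling (−1.68, adjusted p = 0.0476), quantile normalization (−1.75, adjusted p = 0.049) and without both first libraries (−1.55, adjusted p = 0.0481). The cause of these shifts was not tested. Leaving out 1 library gave 14 to 36 calls at 48 h, 27 to 55 at 0 h, 3 to 30 over time in ΔAorlmA, 8 to 28 over time in WT and 0 to 3 in the interaction. For DPM1 such fits gave −0.75 to −0.51 at 0 h, and −0.63 with an adjusted p of 0.0438 without the second ΔAorlmA library at 48 h, and 0.72 to 0.88 over time in WT where the call was lost. With a replicate block 29 members were called at 48 h, 43 at 0 h, 10 over time in ΔAorlmA, 19 over time in WT and 1 in the interaction, so it moved no count by over 1.5 times. Without the 5 genes found only among other O-glycans, these counts were 29, 46, 12, 17 and 1. Depth limits the genes near 1 TPM, such as HEX1.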
